A study of Mus musculus with 8 samples.

Results

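Fibronectin and 6 integrin subunits were followed across the 8 arrays of the study: Fn1, which encodes fibronectin, the alpha subunit genes Itga3, Itga4, Itga5, Itga6 and Itgav, and the beta subunit gene Itgb1. The members were the probe sets that the platform annotation gives to exactly 1 of these 7 symbols, and they came to 22 of 28898 named probe sets (7 of 17097 genes). The arrays measured amplified RNA of 50 cells each, sorted by flow cytometry from gastrulating mouse embryos that carried Mesp1-rtTA and Teto-H2B-GFP. Each fraction was taken at embryonic days 6.5 and 7.5, with 2 arrays, numbered as biological replicates 1 and 2, in each of the 4 groups (GFP+ E6.5, GFP- E6.5, GFP+ E7.5 and GFP- E7.5). All 4 groups carried both transgenes, so the fractions differ by nuclear GFP when sorted and not by genotype. The transactivator is driven by Mesp1, a gene of the earliest mesoderm and of heart progenitors, and it acts only with a tetracycline; the dosing and the number of embryos behind an array are not given in the sources used here. Histone-bound GFP is long-lived, so a GFP+ cell at E7.5 need not still express Mesp1, and GFP- cells are a mixture rather than 1 cell type. Living cells had excluded propidium iodide after a trypsin dissociation, which also cleaves surface proteins, although only RNA was measured here.

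Integrins are receptors that join the cell to its matrix, each made of 1 alpha and 1 beta chain. The beta 1 chain of Itgb1 pairs with all 5 alpha chains measured here. Integrin alpha 5 beta 1 is the main receptor for the RGD site of fibronectin, alpha v integrins bind the same site and vitronectin, alpha 4 beta 1 binds another part of fibronectin and VCAM1, and alpha 3 beta 1 and alpha 6 beta 1 bind laminins of the basement membrane. During gastrulation, epiblast cells sit on a laminin-rich basement membrane, and cells that leave through the primitive streak migrate as mesoderm over a matrix that holds fibronectin. Mouse embryos without fibronectin or alpha 5 form mesoderm but have severe defects of its later derivatives.

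All values are log2 RMA values per probe set, as deposited. Each gene is represented by the probe set whose mean is highest, and the others are described beside it. Levels of different probe sets are not set against each other, because probes differ in brightness. A probe set was tested when at least 2 arrays exceeded 4.38, the median over the whole table. Of the members, 14 of the 22 probe sets did so, at least 1 for each of the 7 genes. Replicate is used for the number in the labels. The 4 arrays of a replicate number had nearly the same value distribution, which differed between the numbers, so differences are also given within each number. Tests are from limma on all 8 arrays, with Benjamini-Hochberg adjustment over 11706 genes and a threshold of 0.05. In these bulk samples fewer cells of a type and less RNA per cell cannot be told apart.

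Mesp1, the gene behind the sort, was higher in GFP+ cells at both stages, but only the E6.5 difference passed the test. It was higher by 3.94 at E6.5 (SE 0.33, limma adjusted p = 0.0209) and by 0.79 at E7.5. It lay at 9.75 and 10.03 on the GFP+ arrays of E6.5 (replicates 1 and 2), against 5.64 and 6.26 on the GFP- arrays, and at 8.75 and 8.65 in GFP+ cells of E7.5, against 7.76 and 8.06 in GFP- cells. Marker lists of other cell types were read on the same arrays. The mean log2 level of 14 visceral endoderm markers (14 of 14 on the array) was 4.37 and 4.72 in GFP+ E6.5 cells, against 6.07 and 7.88 in GFP- E6.5 cells, and 5.32 and 5.17 in GFP+ E7.5 cells, against 5.07 and 6.26 in GFP- E7.5 cells. Of the 14, 8 and 9 lay above 4.38 on the GFP+ E6.5 arrays, against 14 and 14 on the GFP- E6.5 arrays. The mean of 9 epiblast markers (9 of 9 on the array) was 7.37 and 7.79 in GFP+ E6.5 cells, against 9.04 and 9.22 in GFP- E6.5 cells, and 6.48 and 6.07 in GFP+ E7.5 cells, against 7.55 and 7.69 in GFP- E7.5 cells.

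Of the 7 genes, 5 matched the promoter table (Itga3, Itga4, Itga5, Itgav and Itgb1), and Fn1 and Itga6 did not. Promoter sequence is shown for the 3 of the 5 whose arrays did not overlap between fractions at E6.5 on the probe set used. Over all genes tested, arrays did not overlap there for 14.8% (higher in GFP+ cells) and 13.7% (lower). The difference was negative for Itga3 and positive for Itgav and Itgb1. None of these 3 differences passed the test (limma adjusted p = 0.206, 0.755 and 0.879). Each is 300 bases of RefSeq sequence on GRCm38.p6, from 250 bases before an annotated start site to 50 after it, written 5′ to 3′ on the gene's strand. Capitals mark CACCTG on either strand (CAGGTG on the other), the core of the E-box that Snail factors bind. Snai1, the Snail gene of the streak, was 1 of the 8 genes called higher in GFP+ cells at E6.5 (3.13, SE 0.34, limma adjusted p = 0.0495). With 1 array left out, 0 to 1 genes were called in that comparison. Binding of Snail factors to these sequences, or an effect on these genes, was not tested.
Itga3, chr11:95076665-95076964, minus strand: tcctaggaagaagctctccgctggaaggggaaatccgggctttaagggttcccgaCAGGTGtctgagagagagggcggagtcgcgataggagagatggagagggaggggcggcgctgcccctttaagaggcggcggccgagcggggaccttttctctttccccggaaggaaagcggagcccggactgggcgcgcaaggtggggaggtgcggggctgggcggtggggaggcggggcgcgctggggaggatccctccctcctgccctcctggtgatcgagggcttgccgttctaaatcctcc
Itgav, chr2:83724147-83724446, plus strand: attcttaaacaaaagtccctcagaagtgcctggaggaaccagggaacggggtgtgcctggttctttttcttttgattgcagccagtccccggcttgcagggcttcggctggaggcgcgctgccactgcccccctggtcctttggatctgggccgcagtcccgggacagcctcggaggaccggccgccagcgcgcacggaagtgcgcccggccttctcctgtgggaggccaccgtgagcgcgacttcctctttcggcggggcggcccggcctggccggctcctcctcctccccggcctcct
Itgb1, chr8:128685404-128685703, plus strand: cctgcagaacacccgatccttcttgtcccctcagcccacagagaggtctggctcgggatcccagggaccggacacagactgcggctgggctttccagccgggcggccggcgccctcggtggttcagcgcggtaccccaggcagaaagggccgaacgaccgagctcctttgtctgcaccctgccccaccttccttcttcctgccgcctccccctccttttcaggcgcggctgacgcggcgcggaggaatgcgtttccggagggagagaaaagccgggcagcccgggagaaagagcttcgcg
The Itga3 window held 1 such E-box, whose first base lies at -195 from the start site, and the Itgav and Itgb1 windows held 0, as did those of Itga4 and Itga5. A window of this length holds at least 1 CACCTG in 20.2% of the 32851 promoter windows of the table, so a single match is common. The windows were alike in base composition, with a GC content of 66.7% for Itga3, 67.3% for Itgav and 67.3% for Itgb1 (median of all windows 52.7%), and with 24, 24 and 27 CpG dinucleotides (median 7). The GC box GGGCGG, searched on both strands (CCGCCC on the other), had 3 matches in Itga3, 1 in Itgav and 1 in Itgb1, and in 35.7% of all windows. TATAAA on either strand was in none of the 3 and in 13.6% of all windows. A second annotated start of Itga3, at chr11:95069149-95069448 on the minus strand, held no CACCTG and had a GC content of 52.3%. The Itgav window lies within the annotated gene, which begins at chr2:83722303, and sequence at that outer end was not searched. A match describes these letters only.

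Fn1 was the 1 member that passed the test, and it did so in 2 comparisons. Its values at E6.5 were 10.89 and 10.67 in GFP+ cells, against 7.70 and 7.5 in GFP- cells. At E7.5 they were 11.41 and 11.18 in GFP+ cells, against 10.61 and 10.71 in GFP- cells. The GFP- cells of E6.5 therefore stood apart from the other 6 arrays, which lay at or above 10.61, and in each pair of groups that differ by fraction or by stage the arrays did not overlap.

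At E6.5 Fn1 averaged 10.78 ± 0.15 in GFP+ cells and 7.60 ± 0.14 in GFP- cells (SD, n = 2 each). It was higher in GFP+ cells by 3.18 (SE 0.28, 9.06-fold, 95% interval 2.52 to 3.84, limma adjusted p = 0.0214), and by 3.18 within replicate 1 and 3.18 within replicate 2. In GFP- cells Fn1 rose with stage: it averaged 10.66 ± 0.07 at E7.5 and 7.60 ± 0.14 at E6.5. The gain was 3.06 (SE 0.28, 8.33-fold, 95% interval 2.40 to 3.72, limma adjusted p = 0.016), with 2.91 and 3.21 within the replicates. The mean of 11 streak and nascent mesoderm markers (11 of 12 on the array) on the same GFP- arrays was 7.16 and 7.25 at E7.5, against 5.56 and 6.65 at E6.5. The mean of 12 endothelial and blood markers (12 of 12 on the array) was 5.34 and 5.16 at E7.5, against 4.02 and 4.31 at E6.5, and all 8 measured ones had positive stage differences (median 1.48, against 1.03 for the streak list). None of the 8 passed the test. Of the 11 streak markers, 8 had positive and 3 had negative stage differences in GFP- cells. Of these, 1 passed, Aplnr (6.23, SE 0.30, limma adjusted p = 0.00116). Other lists fell on these arrays: of 14 visceral endoderm markers, 13 had negative and 1 had positive stage differences (median -1.37). All 9 epiblast markers had negative ones (median -1.35), and no marker of these lists passed. The part of any of these kinds of cell in the Fn1 difference was not tested. Over all 11706 genes, limma called 0.0769% between fractions at E6.5 (8 or 0.0683% up and 1 or 0.00854% down) and 0.094% between stages in GFP- cells (9 or 0.0769% up and 2 or 0.0171% down).

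The other Fn1 contrasts were smaller and did not pass. At E7.5 Fn1 averaged 11.29 ± 0.17 in GFP+ cells and 10.66 ± 0.07 in GFP- cells (SD, n = 2 each). The difference was 0.63 (SE 0.28, 95% interval -0.02 to 1.29, limma adjusted p = 1), with 0.80 and 0.47 within the replicates. Between stages in GFP+ cells the difference was 0.51 (SE 0.28, 95% interval -0.14 to 1.17, limma adjusted p = 1), with 0.53 and 0.50 within the replicates. The interaction, the fraction difference at E7.5 minus that at E6.5, was -2.55 (SE 0.40, -2.38 and -2.71 within the replicates). It did not pass in the test used (limma adjusted p = 0.738) and passed when the prior spread was allowed to follow the mean level (limma with a trend, adjusted p = 0.0295).

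Both Fn1 calls rest on the spread shared by all 8 arrays. With only the 4 arrays of the comparison the adjusted p was 0.158 between fractions at E6.5 and 0.131 between stages in GFP- cells. The E6.5 call ended whichever 1 of the 8 arrays was left out, at adjusted p from 0.0664 (without GFP- E7.5 replicate 1 or 2) to 0.359 (without GFP+ E6.5 replicate 1), while the difference stayed between 3.07 and 3.29. The stage call in GFP- cells remained without GFP+ E7.5 replicate 1 or 2 (0.0434 each) and ended without any other array (0.0541 to 0.16), with the difference between 2.96 and 3.16.

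**Figure D1:**
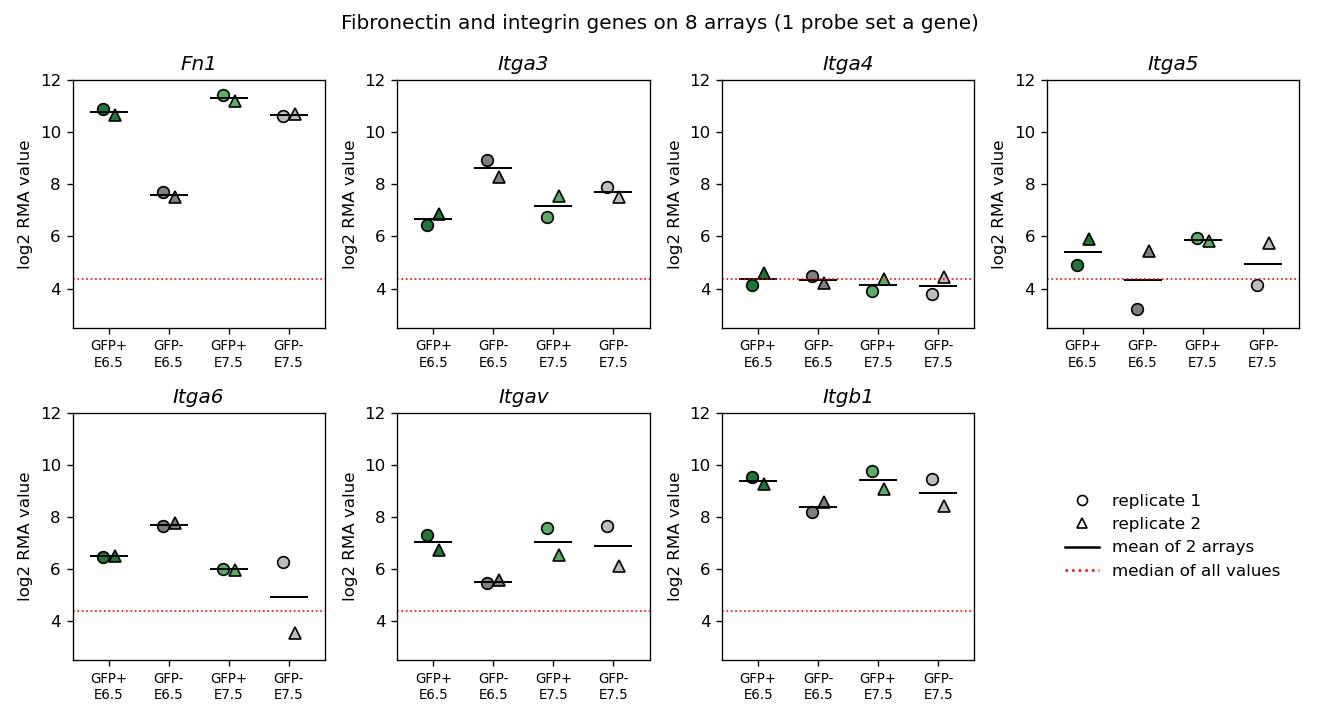
Log2 RMA values of the probe set used for each gene (y axis) on the 8 arrays, by group (x axis). Circles are replicate 1, triangles replicate 2, horizontal bars the mean of the 2 arrays and the dotted line the median of all deposited values (4.38). Fn1 in GFP- cells at E6.5 (7.70 and 7.5) lies apart from the other 6 arrays, and Itga6 in GFP- cells at E7.5 is split between 6.27 and 3.55.

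The laminin-binding subunits Itga3 and Itga6 lay lower in GFP+ than in GFP- cells at E6.5 on every probe set, with no overlap between the groups, but neither passed the test. Itga3 had 6.45 and 6.85 in GFP+ cells of E6.5, against 8.95 and 8.29 in GFP- cells. The difference was -1.97 (SE 0.40, 95% interval -2.92 to -1.02, limma adjusted p = 0.206), with -2.51 and -1.43 within the replicates. Its other 2 probe sets gave -1.63 and -1.76, so all 3 agreed on the direction and closely on the size. At E7.5 Itga3 had 6.75 and 7.55 in GFP+ cells, against 7.88 and 7.52 in GFP- cells, and the groups overlapped on this probe set. The E7.5 difference was -0.55 (SE 0.40, limma adjusted p = 1), with -1.14 and 0.03 within the replicates and -0.62 and -0.27 on the other probe sets. The groups did not overlap on the probe set with -0.62 (-0.08 and -1.16 within the replicates) and overlapped on that with -0.27.

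Between stages, Itga3 in GFP- cells differed by -0.92 (SE 0.40, limma adjusted p = 0.795), with -1.07 and -0.77 within the replicates and -0.86 and -1.14 on the other probe sets. In GFP+ cells the stage difference was 0.50 (SE 0.40, limma adjusted p = 1), with 0.14 and 0.36 on the other probe sets. The interaction was 1.42 (SE 0.57, limma adjusted p = 1), with 1.37 and 1.47 within the replicates.

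Itga6 had 6.47 and 6.5 in GFP+ cells of E6.5, against 7.65 and 7.75 in GFP- cells. Its difference was -1.21 (SE 0.76, limma adjusted p = 1) with -1.17 and -1.25 within the replicates. The SD was 0.02 and 0.07 in these groups, and the SE also takes in the SD of 1.92 in GFP- cells of E7.5. At E7.5 the GFP+ arrays had 6.0 and 5.96, and the GFP- arrays had 6.27 and 3.55, of which the second lay below 4.38. On the other Itga6 probe set the same E7.5 arrays had 5.41 and 5.24 in GFP+ cells, against 5.52 and 5.59 in GFP- cells, so the low value of GFP- E7.5 replicate 2 was not shared.

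The E7.5 fraction difference of Itga6 thus depended on the probe set and on 1 array. It was 1.07 (SE 0.76, -0.27 and 2.40 within the replicates) on the probe set used, -0.23 on the other probe set, and -0.29 when GFP- E7.5 replicate 2 was left out. On the other probe set the E7.5 groups did not overlap, with GFP+ cells lower. Between stages in GFP- cells the Itga6 difference was -2.79 (SE 0.76, limma adjusted p = 0.404), with -1.38 and -4.19 within the replicates. Leaving out GFP- E7.5 replicate 1, it was -4.14 (limma adjusted p = 0.0389), a value that rests on the single array at 3.55, below 4.38, and on a spread taken from the other groups. On the other probe set the difference was -0.64. In GFP+ cells the stage difference was -0.51 (SE 0.76, limma adjusted p = 1), with -0.47 and -0.54 within the replicates and -0.12 on the other probe set.

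Visceral endoderm and epiblast markers were on average higher in GFP- cells at E6.5 (values above), as Itga3 and Itga6 were. Of 14 visceral endoderm markers measured, 14 had negative fraction differences (median -2.61). Of 9 epiblast markers measured, 8 had negative and 1 had positive differences (median -1.09). Of 8 extraembryonic ectoderm markers measured, 6 had negative and 2 had positive fraction differences at E6.5 (median -0.19). Of 5 definitive endoderm markers measured, 4 had negative and 1 had positive differences (median -0.89). Apart from the lists' sides and medians, no marker of these lists passed the test at E6.5. The part of any of these kinds of cell in the Itga3 and Itga6 differences was not tested.

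The subunits Itgav and Itgb1 lay higher in GFP+ than in GFP- cells at E6.5 on the probe sets used, with no overlap between the groups, but neither passed the test. At E7.5 the groups overlapped for both. Itgav had 7.30 and 6.74 in GFP+ cells of E6.5, against 5.45 and 5.58 in GFP- cells. The difference was 1.5 (SE 0.57, 95% interval 0.15 to 2.85, limma adjusted p = 0.755), with 1.84 and 1.16 within the replicates. The other 2 Itgav probe sets that passed the filter gave 0.37 and 0.52, and their groups overlapped. At E7.5 Itgav had 7.55 and 6.53 in GFP+ cells, against 7.66 and 6.11 in GFP- cells, and differed by 0.15 (SE 0.57, limma adjusted p = 1). The replicate numbers differed by more than the fractions there.

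Between stages Itgav differed in GFP- cells by 1.37 (SE 0.57, limma adjusted p = 0.757), with 2.21 and 0.53 within the replicates, and by 0.51 and 0.39 on the other 2 probe sets. In GFP+ cells it differed by 0.02 (SE 0.57, 95% interval -1.33 to 1.37, limma adjusted p = 1). Its interaction was -1.35 (SE 0.81, limma adjusted p = 1), with -1.96 and -0.74 within the replicates.

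Itgb1, the shared partner chain, had 9.53 and 9.24 in GFP+ cells of E6.5, against 8.18 and 8.57 in GFP- cells. The groups did not overlap, and the difference was 1.01 (SE 0.43, 95% interval -0.01 to 2.03, limma adjusted p = 0.879), with 1.34 and 0.68 within the replicates. The other 2 probe sets that passed the filter gave 0.29, with overlap, and 0.58, without. At E7.5 Itgb1 had 9.74 and 9.06 in GFP+ cells, against 9.44 and 8.42 in GFP- cells, and the difference was 0.47 (SE 0.43, limma adjusted p = 1), with 0.30 and 0.64 within the replicates and 0.48 and 0.18 on the other 2 probe sets. Between stages it differed by 0.01 (SE 0.43, limma adjusted p = 1) in GFP+ cells and by 0.56 (SE 0.43, limma adjusted p = 1) in GFP- cells, where the replicates gave 1.26 and -0.15. The Itgb1 interaction was -0.54 (SE 0.61, limma adjusted p = 1), with -1.04 and -0.04 within the replicates.

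The fibronectin receptor subunits Itga5 and Itga4 lay near the filter value or varied between replicates. Itga5 had 1 probe set, with 4.92 and 5.91 in GFP+ cells of E6.5, against 3.21 and 5.44 in GFP- cells, and 5.94 and 5.81 in GFP+ cells of E7.5, against 4.14 and 5.74 in GFP- cells. GFP+ lay above GFP- within each replicate number at both stages, by 1.71 and 0.47 at E6.5 and by 1.80 and 0.06 at E7.5. The SE of 0.81 left both differences (1.09 and 0.93, limma adjusted p = 1 each) within the spread of replicates, and without GFP- E6.5 replicate 1 the E6.5 value was -0.02. Since 3.21 and 4.14, both from GFP- cells of replicate 1, lay below 4.38, the sizes of the replicate 1 differences are uncertain.

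Itga4 had 5 probe sets, of which 4 had no array above 4.38. The fifth ranged from 3.78 to 4.59, with 3 arrays above 4.38. Its fraction difference was 0.02 at E6.5 (SE 0.36, 95% interval -0.83 to 0.87) and 0.02 at E7.5 (SE 0.36, 95% interval -0.83 to 0.87; limma adjusted p = 1 for both). It differed by -0.23 between stages in GFP+ cells and by -0.24 in GFP- cells (SE 0.36 each, limma adjusted p = 1 for both). With its signal this close to the filter value, Itga4 supports no statement on a difference. Likewise 2 of 5 Itgav and 2 of 5 Itgb1 probe sets had no array above 4.38 and were not tested.

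**Figure D2:**
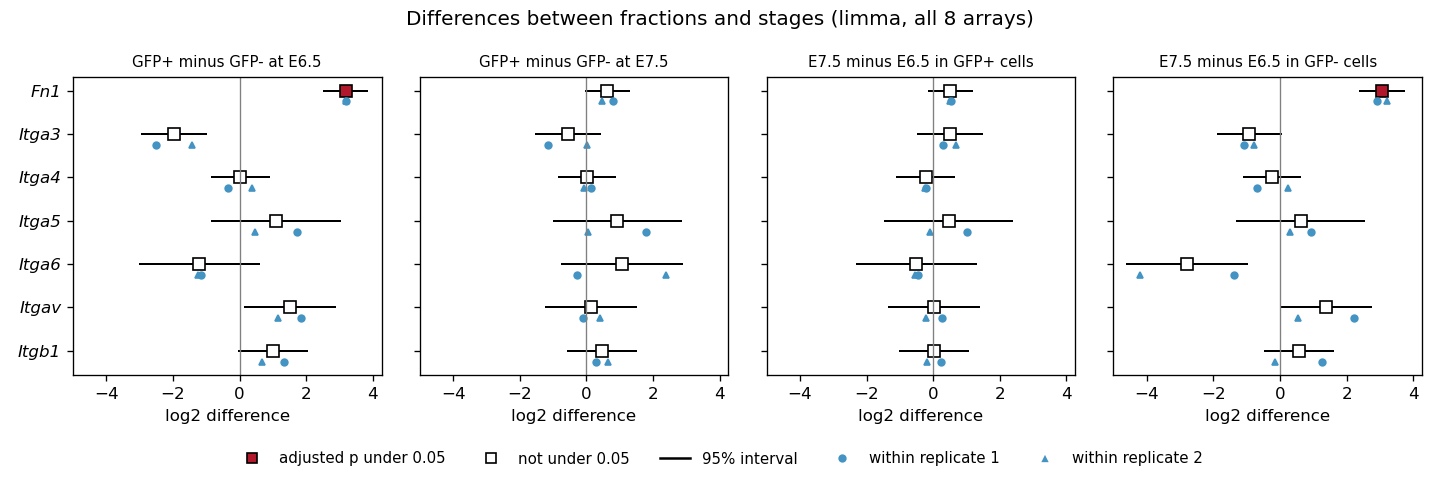
Log2 differences of the 7 genes (rows) in 4 comparisons (panels), from limma on all 8 arrays. Squares are the estimates, filled where the adjusted p is under 0.05, lines the 95% intervals, and small symbols the differences within replicate 1 (circles) and 2 (triangles). Only the Fn1 squares at 3.18 (fractions at E6.5) and 3.06 (stages in GFP- cells) are filled.

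**Figure D3:**
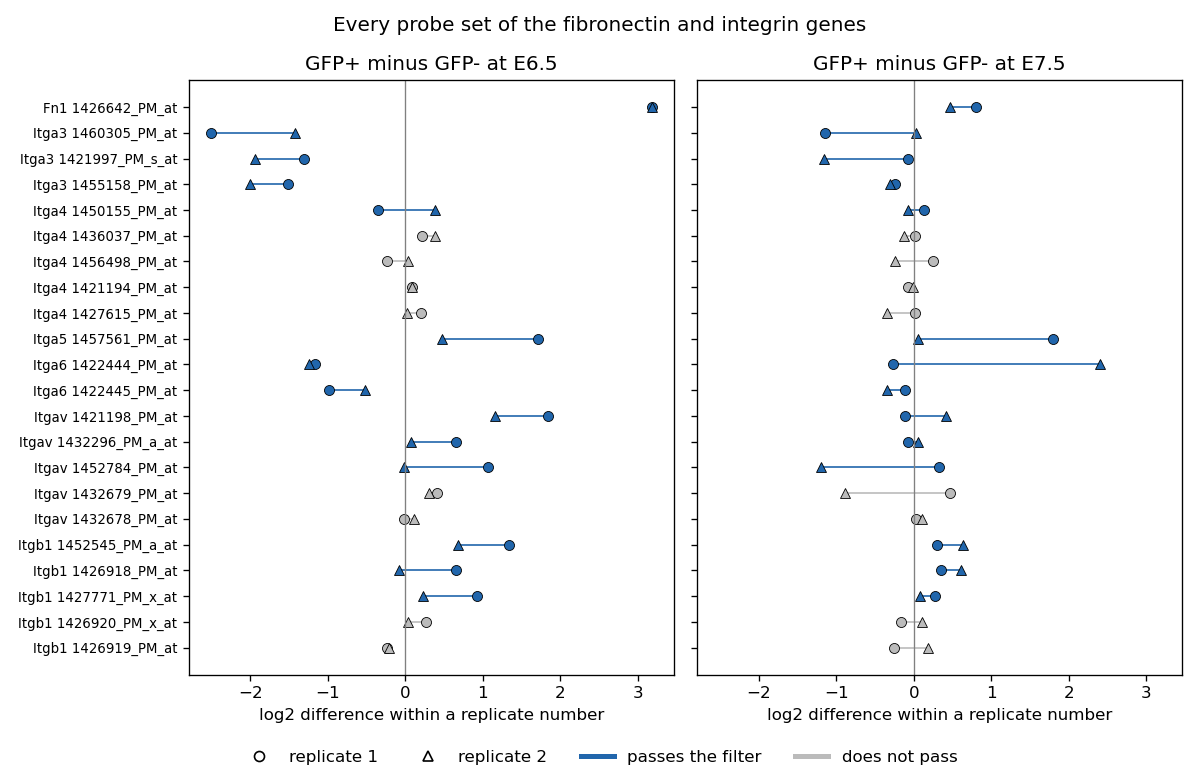
GFP+ minus GFP- log2 differences of all 22 probe sets (rows) at E6.5 (left) and E7.5 (right), within replicate 1 (circles) and replicate 2 (triangles), joined by a line. Blue probe sets passed the filter and grey ones did not. At E6.5 all 5 probe sets of Itga3 and Itga6 lie below 0 in both replicates.

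Of the 7 genes, 1 rose and 0 fell in GFP+ against GFP- cells at E6.5, 0 were called at E7.5 (0% of 11706 genes) and 0 between stages in GFP+ cells (0.0256%, 3 of 11706), 1 rose between stages in GFP- cells, and 0 were called for the interaction (0%). At an unadjusted p under 0.05 limma gave 3 of the 7 at E6.5 (671 or 5.73% of all genes), 0 at E7.5 (282 or 2.41%), 0 between stages in GFP+ cells (451 or 3.85%), 3 between stages in GFP- cells (759 or 6.48%) and 2 for the interaction (317 or 2.71%). The median difference of the 7 was 1.01 at E6.5 and 0.47 at E7.5, against 0.01 and -0.01 over all genes tested, and 0.02 between stages in GFP+ cells and 0.56 in GFP- cells, against -0.03 and -0.01 over all genes. At E6.5 the arrays of the fractions did not overlap for 3 genes higher in GFP+ cells (Fn1, Itgav and Itgb1; 14.8% of all genes) and for 2 lower (Itga3 and Itga6; 13.7%). At E7.5 this held for 2 genes higher in GFP+ cells (Fn1 and Itga5; 10.3% of all genes) and 0 lower (10.8%). Between stages in GFP+ cells it held for 1 gene higher at E7.5 (Fn1; 11.8%) and 1 lower (Itga6; 15.2%), and in GFP- cells for 2 higher (Fn1 and Itgav; 13.1%) and 2 lower (Itga3 and Itga6; 13.6%). These overlap counts are for the probe set used for each gene. The comparisons share groups, so their values are given side by side and not as separate evidence.

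After each array was centred on the mean of its replicate number for that gene, the members had correlations with Fn1 of both signs. Across the 8 arrays, Pearson's r with Fn1 was 0.88 for Itgav, 0.77 for Itgb1 and 0.72 for Itga5, and -0.81 for Itga3, -0.69 for Itga6 and -0.29 for Itga4. Itgav and Itgb1 had r = 0.94 with each other, and Itga3 and Itga6 had 0.41. The Itga4 values stayed near the filter value, and those of Itga6 include the 3.55 that its other probe set did not share. These points are 4 groups of 2 arrays that share the group means, so the values describe the arrays and carry no test.

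The genes most like Fn1 by this measure, among all 11706, were Chst2, a sulfotransferase gene (r = 0.99), the Notch ligand gene Dll3 (0.989), the homeobox gene Meis2 (0.989), Iffo2 (0.989) and Hint1 (0.987). The first 3 shared its low level in GFP- cells of E6.5: Chst2 averaged 8.26 in GFP+ cells and 5.57 in GFP- cells at E6.5, Dll3 8.63 and 4.82, and Meis2 7.70 and 4.10. Hint1 ranged only from 11.12 to 11.27 over the group means. High values of r were common over so few arrays: the fifth most similar gene reached at least 0.963 for each of the 7 members, and 0.97 for Itga4, which stayed near the median of all values. For Itga5 the 5 nearest genes were Twsg1 (0.99), Rgs20 (0.984), Pxn (0.979), Chmp1b (0.968) and Srgap2 (0.967). Of these, Pxn encodes the focal adhesion protein paxillin. The Itga5 values include 3.21 and 4.14, both below 4.38.

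The other integrin and adhesion genes gave no call in any comparison. In 5 lists of 94 genes, 63 were measured: 4 of 13 other alpha subunits, 3 of 7 other beta subunits, 16 of 25 integrin ligands other than fibronectin, 12 of 15 genes of fibronectin assembly and binding, and 28 of 34 of integrin activation and focal adhesion. Limma called 0 of the 63 in each of the 5 contrasts. At an unadjusted p under 0.05 there were 7 at E6.5 and 2 at E7.5 (11.1% and 3.17%, against 5.73% and 2.41% of all genes), 11 between stages in GFP+ cells and 9 in GFP- cells (17.5% and 14.3%, against 3.85% and 6.48%), and 1 for the interaction (1.59%, against 2.71%). With the replicate number as a block and with a prior trend, 0 of the 63 were called as well.

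Among the other subunits at E6.5, the laminin receptor gene Itga7 had a fraction difference of -1.42 (SE 0.50, -0.90 and -1.94 within the replicates) and Itga9, whose product binds tenascin and the EIIIA segment of fibronectin, one of 0.81 (SE 0.43, 0.88 and 0.74). Of the beta chains, Itgb5, a partner of alpha v, differed by 0.08 (SE 0.37), Itgb4, the laminin receptor partner of alpha 6, by 0.12 (SE 0.43), and Itgb7 by 0.27 (SE 0.29). None had an adjusted p under 0.05 (limma adjusted p = 0.672 for Itga7 and 1 for the others). The median difference was 0.05 over the 4 alpha genes and 0.12 over the 3 beta genes, against 0.01 over all genes. In GFP- cells Itga9 differed between stages by 1.00 (SE 0.43, limma adjusted p = 0.776). Itga7 and Itga9 lay on opposite sides of 0 at E6.5, with non-overlapping arrays in both cases. Over all genes tested this held for 14.8% (higher in GFP+ cells) and 13.7% (lower). The Itga9 value of GFP- E6.5 replicate 1 was 4.17, below 4.38.

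Of the genes for fibronectin assembly and binding, Tgfb1, a growth factor gene whose product is kept in the matrix, had the largest fraction difference at E6.5, 2.33 (SE 0.79, limma adjusted p = 0.611), followed by Fstl1, a secreted glycoprotein gene (1.54, SE 0.40, limma adjusted p = 0.36), and the syndecan gene Sdc4, a heparan sulfate coreceptor for fibronectin (-1.21, SE 0.61, limma adjusted p = 1). Fstl1, like Fn1, was lowest in GFP- cells of E6.5, with 7.98 and 7.48 in GFP+ cells of E6.5, against 6.61 and 5.76 in GFP- cells, and 8.45 and 8.79 in GFP+ cells of E7.5, against 8.35 and 8.84 in GFP- cells. Its stage difference in GFP- cells was 2.41 (SE 0.40, 1.74 and 3.08 within the replicates, limma adjusted p = 0.121). The median of the list was 0.09 between fractions at E6.5 and 0.48 between stages in GFP- cells.

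Of the 16 ligand genes measured, 0 passed in any comparison, and the largest differences were between stages. Lama1, the laminin alpha 1 chain of the embryonic basement membrane, had 8.20 and 9.31 in GFP+ cells of E7.5, against 5.71 and 5.96 in GFP+ cells of E6.5, and differed by 2.92 (SE 0.55, limma adjusted p = 0.329). In GFP- cells it had 7.79 and 8.31 at E7.5, against 5.05 and 6.42 at E6.5, and differed by 2.31 (SE 0.55, limma adjusted p = 0.311). The stages did not overlap in either fraction. Col1a1, a fibrillar collagen chain, differed between stages in GFP- cells by 2.37 (SE 0.62, 1.56 and 3.18 within the replicates, limma adjusted p = 0.367). Col4a2, a basement membrane collagen chain, differed by 2.18 in GFP+ and 1.83 in GFP- cells (SE 0.67 each). Vtn, the gene of vitronectin, differed by 1.74 (SE 0.69, 2.57 and 0.92 within the replicates) in GFP+ cells. Both its GFP+ E6.5 values (3.96 and 3.72) lay below 4.38, so the size is uncertain. Between fractions at E6.5 the largest differences of the list were -0.56 for Lamc1 (SE 0.45), -0.54 for Col4a1 (SE 0.46) and 0.40 for Lamb1 (SE 0.31). At E7.5 they were -1.17 for Col1a1 (SE 0.62, 0.20 and -2.54 within the replicates), 0.73 for Emilin1 (SE 0.56) and 0.70 for Lama1 (SE 0.55). For the list, the median was 0.31 between stages in GFP+ cells and 0.17 in GFP- cells, against -0.07 between fractions at E6.5 and 0.08 at E7.5.

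Of the adaptor genes that couple integrins to actin, Ilk, the integrin-linked kinase gene, differed by 1.06 between fractions at E6.5 (SE 0.40, limma adjusted p = 0.732). Its binding partner gene Parva had the largest stage difference of the list in GFP- cells, 2.06 (SE 0.46, 2.78 and 1.34 within the replicates, limma adjusted p = 0.251), and 1.08 (SE 0.46) in GFP+ cells. The tetraspanin genes Cd9 and Cd151, whose products associate with alpha 3 and alpha 6 integrins, lay at -1.04 (SE 0.41) and -0.91 (SE 0.34) at E6.5, the same side as Itga3 and Itga6 (limma adjusted p = 0.783 and 0.75). Between fractions at E7.5 the largest differences in the remaining lists were 0.81 for Sharpin, an integrin inhibitor gene (SE 0.33), -0.92 for Cd44, a hyaluronan receptor gene (SE 0.35), -0.69 for Itga7 (SE 0.50) and 0.19 for Itgb5 (SE 0.37), each with limma adjusted p = 1. Both Cd44 values of GFP+ E7.5 cells (4.37 and 3.93) and the Itga7 value of GFP+ E7.5 replicate 2 (4.23) lay below 4.38. The focal adhesion list had a median of -0.02 between fractions at E6.5, 0.19 between stages in GFP+ cells and 0.26 in GFP- cells.

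**Figure D4:**
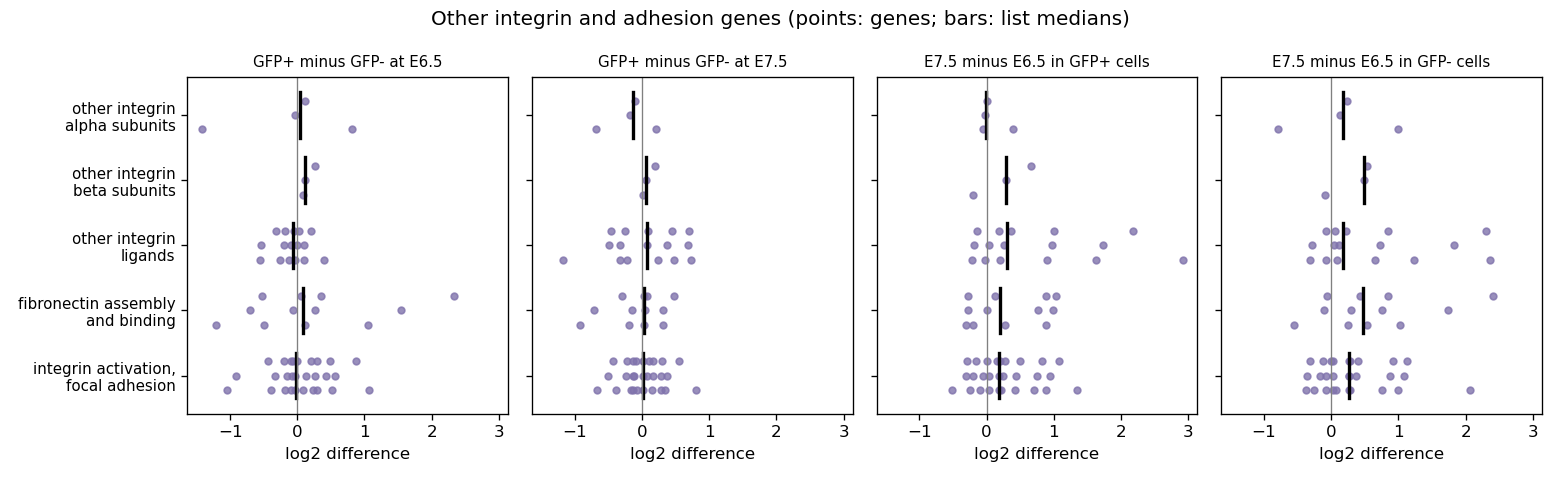
Log2 differences of the 63 measured genes of 5 integrin and adhesion lists (rows) in 4 comparisons (panels). Each point is 1 gene and each vertical bar the median of its list, which lies between -0.14 and 0.49 in all panels. No point passed the test, and the points beyond 2 are Tgfb1 at E6.5 and Lama1, Col4a2, Col1a1, Fstl1 and Parva between stages.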

How the data were processed

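The authors deposited 1 table of log2 values per probe set, made with RMA per the submitters' processing notes, from Affymetrix mouse expression arrays; version and genome build are not given in the sources used here. RNA was reverse transcribed and amplified by whole-transcriptome PCR, stopped after 25 cycles, per the labels' protocols, and the number of arrays limits the precision. Of 45141 probe sets, 104 were controls, 551 had several gene symbols and 15588 were unnamed here; names come from the platform annotation. Probe sets with at least 2 of 8 arrays above the median of all values (4.38) were kept (18584), and 1 with the highest mean stands for each of 11706 genes. Limma 3.58.1 in R 4.3.3 (lmFit, eBayes) took all 8 arrays and 4 group means (residual degrees of freedom 4, prior 3.21). The code was also run on simulated data with independent noise on each array. That run checked only that mean estimates lay near the planted changes. It does not show how reliable calls are on arrays that deviate together. The labels do not say whether replicates came from separate embryos, so p-values measure only the spread between these arrays. Sorted values differed by a mean of 0.0291 and 0.0248 within replicates 1 and 2, and by 0.229 between them. All member probe sets are covered; genes named from the other lists come from those past the threshold or the 3 largest differences per comparison, and similar genes from the 5 with the highest r. Members and lists were chosen with earlier results of these data known. Alternatives were 9 other settings and 8 fits without 1 array.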

Additional observations from a re-analysis of the deposited data

Results flagged for a closer look

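The Itga3 probe set with the lowest mean had stage differences of opposite sign in the sorted fractions. In GFP+ cells it had 4.49 and 4.81 at E7.5, against 4.23 and 4.36 at E6.5 (difference 0.36). In GFP- cells it had 4.73 and 5.12 at E7.5, against 5.76 and 6.36 at E6.5 (difference -1.14). The stage difference in GFP- cells minus that in GFP+ cells was -1.49, and it was singled out because both E7.5 arrays lay above both E6.5 arrays in GFP+ cells and below them in GFP- cells. With every probe set fitted on its own, limma gave this interaction an adjusted p of 1. Both GFP+ E6.5 arrays lay below 4.38, so the size in GFP+ cells is uncertain. The other Itga3 probe sets gave 0.50 and 0.14 in GFP+ cells with overlapping arrays, and -0.92 and -0.86 in GFP- cells.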

How the results depend on the processing

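All 583 recomputed member differences came to 536 on the same side of 0 and of the threshold, 16 no longer past it, 2 newly past it and 29 of the other sign. The 16 all belong to the 2 Fn1 calls, the only member differences past the threshold in the test used. Nearly all of the 536 were not past it before or after. Causes were not tested. Between fractions at E6.5, limma called 9 genes, against 4 with every probe set fitted on its own, 16 with joint quantile normalization, 19 with median centring, 25 with a prior trend, 0 with only the 4 arrays of the comparison and 0 to 1 without 1 array; members called were 1, against 0 with only 4 arrays and 0 without any 1 array. Between stages in GFP+ cells 3 genes became 0 without a filter, 0 with only 4 arrays, 8 with median centring and 0 to 3 without 1 array. Between stages in GFP- cells 11 genes became 17 with the mean of all probe sets, 4 with only 4 arrays, 26 with quantile normalization, 30 with median centring, 34 with a trend and 3 to 10 without 1 array; members called were 1, against 0 with only 4 arrays and 0 to 1 without 1 array. For the interaction a trend called 2 genes, of which 1 was a member (Fn1).

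Same-numbered arrays of different groups deviated together (r 0.401 to 0.532 over 6 pairs of groups), but the labels do not say what a number shares. With the replicate number as a block, 30 genes were called at E6.5 (18 up and 12 down, including all 9) and 39 between stages in GFP- cells (29 up and 10 down, including all 11). Between stages in GFP+ cells the block called 3, of which 1 was shared. Fn1 kept both calls under the block (limma adjusted p = 0.0111 and 0.00978), and no other member was called.

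Signs turned for small differences and for some differences near 1 (Itga5 at E6.5, reported as 1.09, and Itga6 at E7.5, reported as 1.07). Quantile normalization gave Itga4 -0.02 at E6.5, the mean of probe sets gave Itgav -0.10 between fractions at E7.5 and -0.14 between stages in GFP+ cells, and Itgb1 -0.01 there, and median centring gave the Itga4 interaction 0.00. Without 1 array, the E6.5 fraction difference ran from -0.21 to 0.25 for Itga4 and -0.02 to 2.20 for Itga5. At E7.5 it ran from -0.30 to 0.35 for Itga4, -0.29 to 2.43 for Itga6, -0.62 to 0.93 for Itgav and -0.04 to 0.98 for Itgb1. Between stages in GFP+ cells it ran from -0.04 to 0.95 for Itga5, -0.49 to 0.53 for Itgav and -0.33 to 0.36 for Itgb1, and in GFP- cells from -0.57 to 0.09 for Itga4 and -0.50 to 1.73 for Itga5. The interaction ran from -0.32 to 0.33 for Itga4 and -1.27 to 0.95 for Itga5. With 2 arrays a group of 50 amplified cells, low signals such as Itga4 limit what can be measured.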
